A study of Mus musculus with 2 samples.

Results

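Dividing endothelial cells made up 7.53% (881 of 11696; 95% Clopper-Pearson interval 7.06 to 8.03%) of the endothelial barcodes with little Lyve1 in the library from 1 Gimap5 sph/sph mouse, against 1.02% (103 of 10115; 0.832 to 1.23%) under the same rule in the library from 1 Gimap5 sph/+ mouse. They carried the replication, chromosome and spindle genes of dividing cells far above the level of the cells they were set against. They also carried the capillary genes that prevail in the sph/sph library, though at lower levels than those cells (median log2 ratio -0.43). Arterial, venous, central vein and sinusoidal genes were lower as well, with medians of -0.56, -0.70, -0.68 and -0.64. The cells were selected on measured values: barcodes with at least 500 detected genes, at least 1000 unique molecular identifiers (UMIs, each counted transcript) and at most 15% mitochondrial UMIs were kept, and of these the cycling cells had 3 or more UMIs of Mki67, Top2a, Cenpf and Birc5 together, at least 1 UMI of the endothelial genes Pecam1 and Cdh5 together, and at most 4 UMIs of Lyve1. The comparison set was the 10077 sph/sph cells that met the same limits with no UMI of the 4 division genes, and the 738 cells with 1 or 2 such UMIs were in neither set. In all, 25398 of the 29522 barcodes of both libraries passed the filters.

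Liver endothelial cells were sorted as DAPI-CD45-CD31+ from adult C57BL/6 mice and profiled by droplet single-cell RNA sequencing of transcript 3' ends. The mice carried the sph allele of Gimap5, a gene for a GTPase of the endolysosomal membrane of lymphocytes and endothelium, on 1 copy (sph/+) or on both (sph/sph), so that the sph/+ mouse is a carrier of the allele and neither library is wild type. With 1 mouse and 1 library per genotype, genotype and library cannot be told apart, no difference has a replicate check, and no test was made. Intervals cover counting error only, UMIs pooled over cells not being independent cells. Because measured counts chose the cells, every contrast with the comparison set is a description of the chosen cells.

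In the cell cycle, cells that pass the restriction point make cyclin E and the E2F factors, load and fire replication origins, copy their DNA and histones, and then build the kinases, kinetochores and spindle that part the chromosomes before the anaphase-promoting ligase removes the mitotic cyclins. Adult liver endothelium is mostly quiescent and divides after injury or loss of liver mass. Sinusoidal endothelium is a fenestrated, scavenging endothelium, while continuous capillary endothelium takes up fatty acids and is closed by a basement membrane.

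Promoters of mitotic genes that were far higher in the cycling cells are shown first, because mitotic genes share short elements there. The replication gene Mcm6, which differed less (74.7 against 34.4 CPM in comparison cells), is set beside them. The cell cycle homology region (CHR) was searched as TTTGAA, the CCAAT box as CCAAT, and E2F sites as TTCCCGC or TTGGCGC, each on both strands. Windows from 250 bases before to 50 bases after the start came from RefSeq on GRCm38.p6. Of the 78 genes on the lists of mitotic kinases, exit ligase, kinetochore and spindle, 67 had a window, and their 73 windows held TTTGAA in 56.2%, CCAAT in 75.3% and both in 47.9%, against 17.9%, 37.4% and 6.95% of all 32851 mouse windows. An E2F match was in 20.5% of them and in 6.81% of all windows. Only 29 of 38 genes of replication and nucleotide supply had a window, too few for a share. The last 120 bases before the start are printed for the 3 marker genes that the choice of cells did not use, for Cdc20 and for Mcm6, with every match to a searched motif, or to its reverse complement, in capitals. They lie at chr2:164769809-164769928 on the plus strand (Ube2c), chr9:70421555-70421674 on the minus strand (Ccnb2), chr3:135212443-135212562 on the plus strand (Cenpe), chr4:118437344-118437463 on the minus strand (Cdc20) and chr1:128359706-128359825 on the minus strand (Mcm6).
Ube2c: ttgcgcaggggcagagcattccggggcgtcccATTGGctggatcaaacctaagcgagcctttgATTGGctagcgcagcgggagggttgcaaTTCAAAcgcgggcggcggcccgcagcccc
Ccnb2: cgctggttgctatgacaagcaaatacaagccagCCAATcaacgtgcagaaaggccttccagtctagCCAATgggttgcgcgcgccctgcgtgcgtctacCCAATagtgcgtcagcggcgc
Cenpe: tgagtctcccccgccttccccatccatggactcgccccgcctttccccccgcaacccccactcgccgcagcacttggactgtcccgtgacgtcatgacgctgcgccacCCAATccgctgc
Cdc20: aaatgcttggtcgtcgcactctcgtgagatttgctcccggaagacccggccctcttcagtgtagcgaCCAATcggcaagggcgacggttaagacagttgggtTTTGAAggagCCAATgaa
Mcm6: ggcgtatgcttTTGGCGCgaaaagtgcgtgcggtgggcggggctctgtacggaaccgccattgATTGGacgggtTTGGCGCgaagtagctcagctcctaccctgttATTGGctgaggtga
Ube2c and Cdc20 hold a CHR match and a pair of CCAAT matches in these stretches. Ccnb2 holds 3 CCAAT matches and Cenpe holds 1, with no TTTGAA in the bases shown. Mcm6 holds 2 CCAAT matches and 2 E2F matches. A match is a run of letters and was not read as a bound site.

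The label was checked on Cenpe, Ube2c and Ccnb2, which played no part in the choice. Cenpe, the kinesin that carries chromosomes to the spindle equator, had a UMI in 65.4% of cycling cells (62.1 to 68.5%) and in 0.893% of comparison cells (0.719 to 1.10%). Ube2c, the ubiquitin-conjugating enzyme of the anaphase-promoting complex, had one in 52.4% and 0.595%, and Ccnb2, a mitotic cyclin, in 59.4% and 0.933%. All 3 were seen in 304 of the 881 cells (34.5%) and none in 161 (18.3%), while 2.25% of comparison cells held any of them. Of the 4 genes that chose the cells, all were present in 41.5% of cells and exactly 1 in 3.86%. Pecam1, the CD31 antigen, and Cdh5, the endothelial cadherin, helped choose the cells. Their shares of 96.6% and 99.2% of cycling cells are therefore a description, and 7 of the 881 had a single UMI of the pair. Of endothelial genes outside the rule, Kdr was seen in 97.6%, Egfl7 in 99.2% and Eng in 98.9% of cycling cells, against 96.3%, 99.4% and 98.0% of comparison cells. Just inside the threshold, 51.6% of the 95 cells with a sum of 3 carried Cenpe, Ube2c or Ccnb2, and just outside it 40.1% of the 172 cells with a sum of 2 did.

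Cycling cells were also the deeper cells. Their median was 5122 UMIs and 2321 genes, against 3683 UMIs and 1787 genes in comparison cells, a ratio of 1.39 in median UMIs. Mitochondrial UMIs were alike at 5.32% and 5.68%. A doublet score (Scrublet) placed 15.8% of cycling and 10.4% of comparison cells among the barcodes it ranked highest. Without these highest-ranked barcodes the cycling share was 7.15%, and 478 genes were 2-fold higher and 159 lower. Of the 231 named genes past 2-fold, 229 stayed past it. Whether the barcodes are doublets was not tested. Values are given as CPM (UMIs summed over a set and scaled to its total). They are also given as shares of cells with a UMI, after each cell was thinned at random to 2000 UMIs. Thinning kept 859 cycling and 9173 comparison cells and left out 22 and 904 with fewer UMIs. When the rule itself was applied to thinned cells, 5.68% of 10739 sph/sph and 0.823% of 9725 sph/+ cells met it. Between the libraries 30 cell barcodes are shared.

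**Figure D1:**
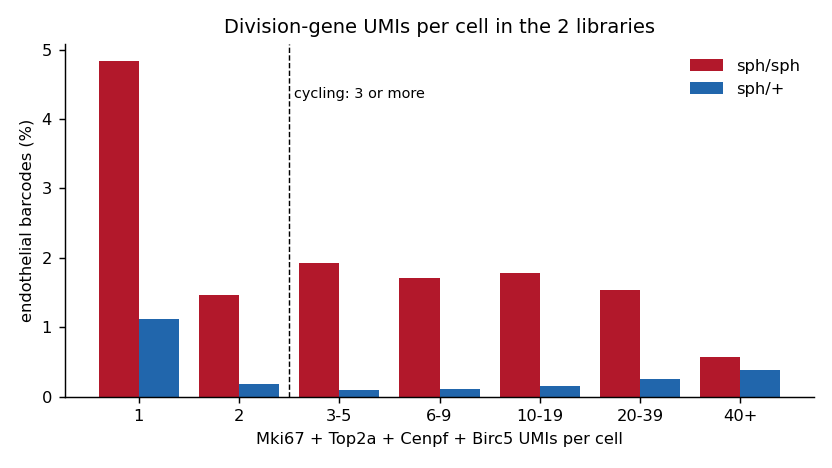
Share of endothelial barcodes (y axis, percent of 11696 sph/sph and 10115 sph/+ barcodes) by the sum of Mki67, Top2a, Cenpf and Birc5 UMIs in the cell (x axis, cells at 0 not drawn), with the limit of 3 as a dashed line. Bars are the 1 library of each genotype. The sph/sph bars are above the sph/+ bars at every sum, from 4.84% against 1.13% at a sum of 1 to 0.573% against 0.386% at 40 or more.

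The sph/sph library exceeded the sph/+ library most among cells with few division UMIs. Sums of 3 to 5 were found in 226 sph/sph cells, sums of 6 to 19 in 408, and sums of 20 or more in 247, or 28.0% of the cycling cells (25.1 to 31.1%). In the sph/+ library 65 of 103 cycling cells (63.1%, 53.03 to 72.4%) reached 20 or more. The sph/+ cycling cells were deeper, with a median of 8155 UMIs. After thinning to 2000 UMIs, 16.7% of 859 sph/sph cells (14.2 to 19.3%) and 42.0% of 100 sph/+ cells (32.2 to 52.3%) still held 10 or more division UMIs. These sums chose the cells, so the shares are a description only.

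Of 31053 genes in the files, 7197 reached 20 CPM in cycling or comparison cells of the sph/sph library, and 453 of these (6.29%) were at least 2-fold higher and 125 (1.74%) at least 2-fold lower in cycling cells, after 1 CPM was added to both. Since the choice of cells used this contrast, these shares are a background and nothing is read from them. The counts given for each list below are to be set beside these shares. A count near them says nothing particular about its list. The median log2 ratio over all measured genes was -0.02, and 5915 genes lay within 1.5-fold. The change was uneven in size: 173 genes were more than 8-fold higher, and 1 gene, Mal, was more than 8-fold lower. The 12 highest log2 ratios outside the 4 division genes belonged to Ube2c (7.70), Hmmr (7.20), Prc1 (6.89), Cenpe (6.81), Kif11 (6.72), Anln (6.72), Ccna2 (6.72), Hist1h2ap (6.70), Knl1 (6.66), Aspm (6.66), Pimreg (6.64) and Cdca8 (6.45). All but the histone gene serve in the G2 and mitotic phases, as spindle motors and bundlers (Kif11, Prc1, Aspm), as a hyaluronan receptor that binds spindle microtubules (Hmmr), or as kinetochore and passenger proteins (Knl1, Cdca8).

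**Figure D2:**
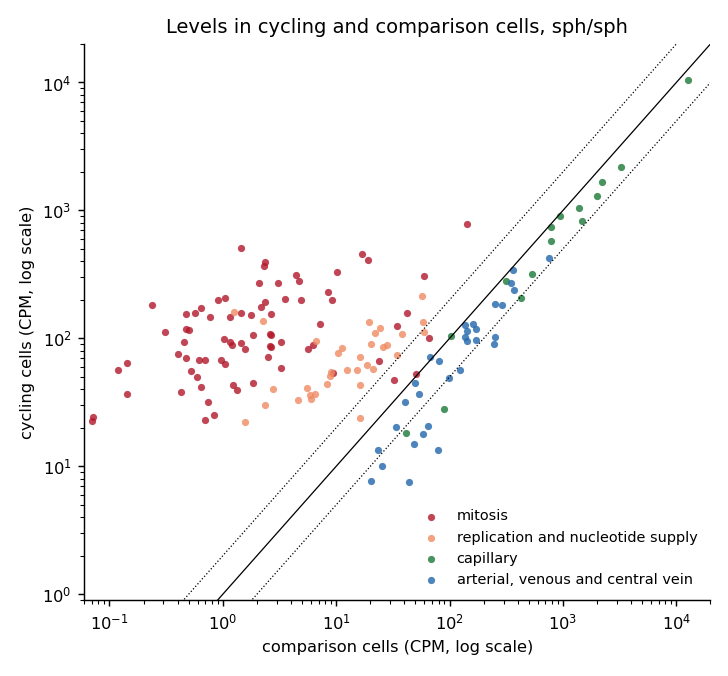
Level of each measured list gene in comparison cells (x axis) and cycling cells (y axis) of the sph/sph library, both in CPM on log scales, with the line of equality solid and 2-fold lines dotted. Mitosis genes lie far above the line at comparison levels mostly below 10 CPM, replication genes lie above it less steeply, and vessel genes lie on or below it.

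Every mitotic kinase and cyclin measured was higher. All 23 were past 2-fold, with a median log2 ratio of 5.21, and their summed level was 3170 CPM in cycling and 79.3 CPM in comparison cells. Cdk1, the kinase that drives entry into mitosis, was at 457 CPM against 17.0 CPM, 26.9-fold higher (24.7 to 29.3). Ccna2, the cyclin of S and G2 phases, was at 172 against 0.646 CPM, Ccnb1 at 118 against 0.478 CPM, and Plk1, a kinase of centrosomes and kinetochores, at 147 against 1.15 CPM. Foxm1, the factor that activates G2 and M phase genes, was at 88.0 against 1.20 CPM. The smallest log2 ratio of the list was 3.63, of the centriole kinase Plk4 (89.4 against 6.29 CPM).

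The 19 measured centromere and kinetochore genes (median log2 ratio 4.92) and the 26 spindle and cytokinesis genes (5.46) were likewise all past 2-fold. Cenpa, the histone variant that marks centromeres, was at 329 against 10.3 CPM. Ndc80, the kinetochore protein that grips microtubules, was at 109 against 2.61 CPM, and Hmmr at 181 against 0.239 CPM, which rested on 10 comparison UMIs (756-fold, 409 to 1582). The lowest ratios were those of Hjurp, the chaperone of Cenpa (307 against 59.1 CPM), and Ska2 among the first, and of the cytokinesis kinase Cit (124 against 34.6 CPM) and the microtubule polymerase Ckap5 (157 against 41.9 CPM) among the second. The exit ligase was split: of its 9 measured genes 6 were past 2-fold, among them Cdc20 (280 against 4.74 CPM), its activator at anaphase, and Fbxo5, its inhibitor (91.5 against 1.46 CPM), while the subunits Cdc27 (47.5 against 32.3 CPM) and Anapc11 (100.4 against 65.5 CPM) were not. Pttg1, the securin, was level at 52.3 against 51.1 CPM.

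Genes of replication were higher by less, from a higher base. Of 25 measured, 24 were past 2-fold with a median log2 ratio of 2.28, and the 8340 cycling UMIs of the list came to 1610 CPM against 406 CPM. The helicase subunits Mcm2 to Mcm7 ranged from 2.17-fold (Mcm6, 74.7 against 34.4 CPM; log2 ratio 0.97 when cycling cells needed a sum of 6) to 4.46-fold (Mcm7, 89.8 against 20.1 CPM). Uhrf1, which brings the maintenance methylase to new DNA, was at 94.8 against 6.70 CPM, and Pcna, the sliding clamp, at 86.1 against 26.0 CPM. Gins4 (23.7 against 16.4 CPM) was the member short of 2-fold. Among 9 genes of nucleotide supply 8 were past 2-fold (median 2.60), led by Rrm2, the regulated subunit of ribonucleotide reductase (161 against 1.27 CPM), and thymidine kinase Tk1 (137 against 2.25 CPM). Repair and checkpoint genes were higher in 10 of 11 (median 2.82), with the repair gene Brca1 at 41.3 against 1.60 CPM.

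Histone and chromatin genes were among the most abundant transcripts that differed. Of 13 measured replication-dependent histone genes 11 were past 2-fold (median 3.36), including Hist1h1b at 174 against 1.03 CPM and Hist1h2ap at 340 against 2.27 CPM, while Hist1h1c (176 against 161 CPM) and Hist1h2bc (264 against 249 CPM) were level. Most histone messages lack a poly(A) tail and the copies are near-identical, so single histone values are uncertain. With 5 CPM added in place of 1 their median was 2.13. Of 19 chromatin and microtubule partners 17 were past 2-fold (median 1.96), with Hmgb2 at 1292 against 117 CPM, the histone variant H2afz at 1311 against 190 CPM and the tubulin regulator Stmn1 at 911 against 38.01 CPM. Condensin and cohesin genes were higher in 8 of 10 (median 3.19): the condensin gene Smc2 was at 418 against 32.6 CPM, whereas the cohesin genes Smc1a (256 against 178 CPM) and Smc3 (189 against 97.2 CPM) stayed short of 2-fold.

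The regulators of the step from G1 into S did not move together. Of 17 measured, 9 were past 2-fold higher and 1 lower, with a median of 1.02 that was 0.0365 over the members reaching 50 CPM. Ccnd1, the cyclin D that growth factors induce, was as high in comparison cells (1193 CPM) as in cycling cells (1177 CPM; ratio 0.986, 0.960 to 1.01). Ccnd2, another cyclin D, was 3.63-fold lower (3.14 to 4.21), at 36.9 against 134 CPM, and its share of thinned cells was 5.59% against 18.2%. In the sph/+ cells of the same rule Ccnd2 was at 136 against 534 CPM. Ccne1 and Ccne2, the cyclins E, were at 22.2 against 0.933 and 35.9 against 1.77 CPM. E2f1, an activator, was 3.33-fold higher, and E2f8, a repressor that ends the E2F wave, was at 42.1 against 0.311 CPM on 13 comparison UMIs. Myc, a growth-promoting factor, was at 16.8 against 20 CPM.

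Of 15 measured inhibitors and quiescence genes, 2 were past 2-fold higher and 1 lower, beside 6.29% and 1.74% of all measured genes. The 2 were Cdkn2c (132 against 11.31 CPM) and Cdkn2d (141 against 13.0 CPM), both inhibitors of the cyclin D kinases, and the 1 was Cdkn1c (20.7 against 47.3 CPM), an inhibitor of the cyclin E and A kinases. Cdkn1a, the p53-responsive inhibitor p21, was not lower in cycling cells: 484 against 422 CPM, and 53.4% of thinned cycling cells (50.03 to 56.8%) against 43.7% (42.7 to 44.7%). None of 10 measured p53 targets differed by 2-fold (median 0.11), with Mdm2 at 76.8 against 72.1 CPM and Bax at 360 against 300 CPM. Btg2, an antiproliferative gene, was at 482 against 815 CPM.

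**Figure D3:**
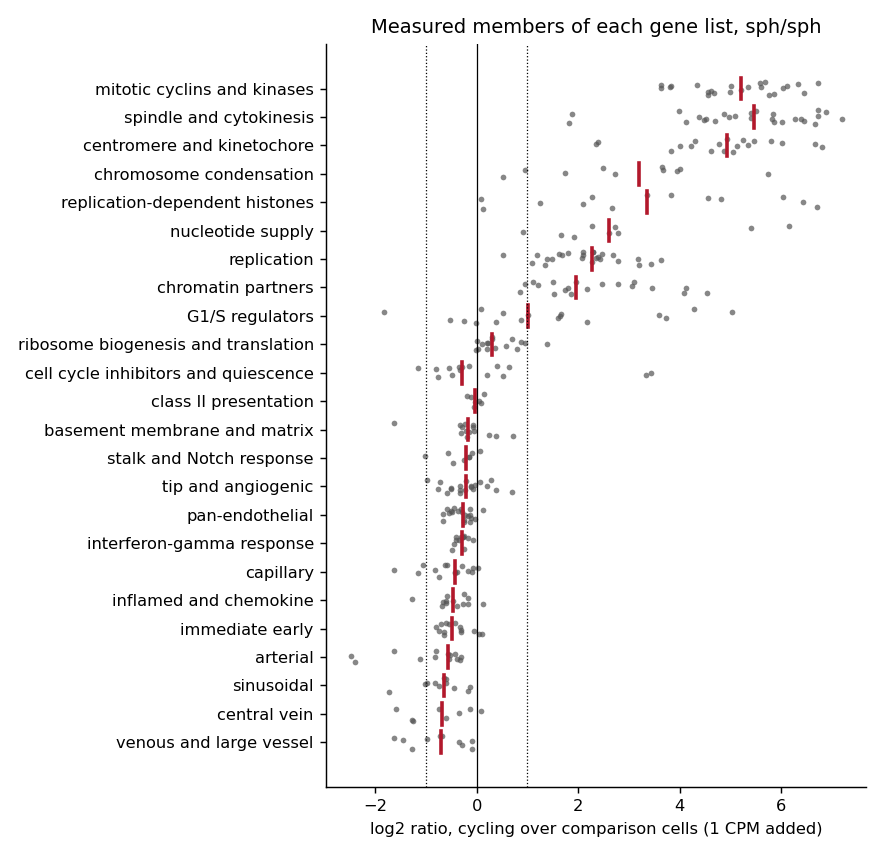
Log2 ratio of cycling over comparison cells (x axis, 1 CPM added) for the measured members of 24 gene lists in the sph/sph library, each point a gene and each red bar the list's median. Dotted lines mark 2-fold. Division lists lie to the right, with medians up to 5.46, and vessel lists lie left of 0, down to -0.70.

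Within the cycling cells, replication and mitosis transcripts were unevenly spread. Each cell held a median of 10 UMIs of the 38 replication and nucleotide genes and 46 UMIs of the 78 mitosis genes, whereas comparison cells held 1 and 2. The mitosis genes' share of these UMIs was below 60% in 158 cells, between 60 and 90% in 407, and at 90% or more in 316. These are ranges of a continuous score and not cell types: 65 cells lay within 5 points of the lower cut and 269 within 5 points of the upper. Pcna, Mcm5, Cenpe, Cdc20 and Ube2c are among the genes that define the ranges, so their levels differ across them by construction and are a description. In the range below 60%, Pcna reached 232 CPM, Mcm5 211 CPM, Ccne2 108 CPM and E2f1 134 CPM, and Cenpe was at 37.3 CPM. At 90% or more, the same genes were at 13.0, 12.4, 3.95 and 2.82 CPM, and Cenpe, Cdc20 and Ube2c were at 714, 568 and 923 CPM. Since the rule's 4 genes are mostly expressed late in the cycle, cells early in replication can lack 3 such UMIs: 637 comparison cells (6.32%) held 8 or more replication UMIs, as did 494 cycling cells (56.1%).

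**Figure D4:**
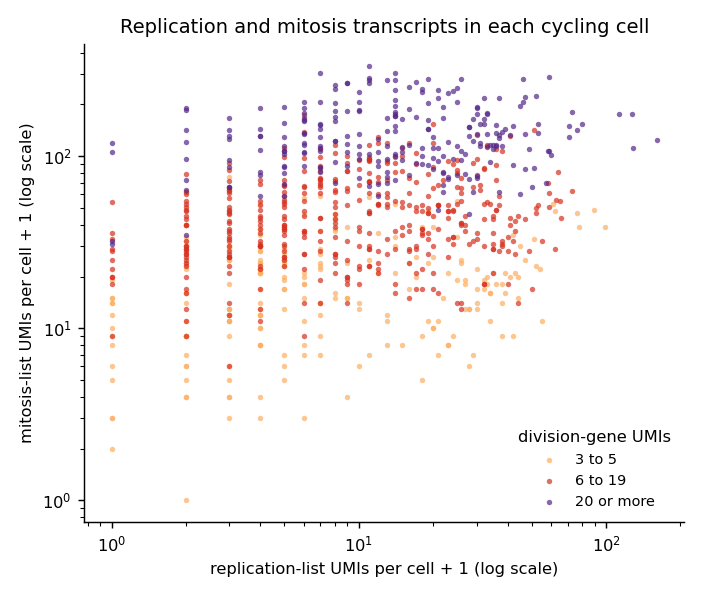
Replication-list UMIs (x axis) and mitosis-list UMIs (y axis) of each of the 881 cycling cells, both with 1 added on log scales, each point a cell coloured by its sum of the 4 division genes. The 247 cells with a sum of 20 or more lie highest, with a median of 125 mitosis UMIs against 16 in cells with a sum of 3 to 5.

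The cycling cells carried the capillary genes of their library. Fabp4, a fatty acid carrier of continuous capillaries, was at 10430 CPM in cycling and 12660 CPM in comparison cells and was seen in 98.4% and 97.9% of thinned cells. Gpihbp1, which moves lipoprotein lipase to the capillary lumen, was seen in 88.5% and 88.6%, Cd34 in 74.0% and 74.9%, and the caveolin gene Cav1 in 75.1% and 74.4%. At least 4 of the 6 genes Cd36, Fabp4, Gpihbp1, Ly6c1, Cd34 and Cav1 were seen in 88.0% of thinned cycling cells (85.7 to 90.1%) and in 88.5% of comparison cells (87.8 to 89.1%). These 6 genes and the count of 4 were chosen after the values were seen. The other 2 were seen less often in cycling cells than in comparison cells, Cd36 in 71.6% (68.5 to 74.6%) against 82.3% (81.5 to 83.04%) and Ly6c1 in 82.2% (79.5 to 84.7%) against 87.5% (86.8 to 88.2%).

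Their amounts were lower. Of 15 measured capillary genes none was 2-fold higher and 3 were 2-fold lower, with a median log2 ratio of -0.43 beside -0.02 over all genes. The 3 were Btnl9 (28.2 against 88.7 CPM), Car4, a carbonic anhydrase of the luminal face (18.1 against 41.5 CPM), and Lpl, lipoprotein lipase (208 against 431 CPM), which was short of 2-fold, at a log2 ratio of -0.89, when cells with a sum of 2 were counted as cycling. Cd36, the fatty acid translocase, was at 833 against 1465 CPM and was seen in 87.3% against 90.1% of unthinned cells. Rgcc, a complement-response gene, was at 318 against 531 CPM and seen in 40.6% against 50.9% of thinned cells, although the unthinned shares were 62.8% and 61.7%. Counted per cell, cycling cells held 0.806 times the Cd36 UMIs and 1.17 times the Fabp4 UMIs of comparison cells, since they held 1.42 times as many UMIs in all.

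**Figure D5:**
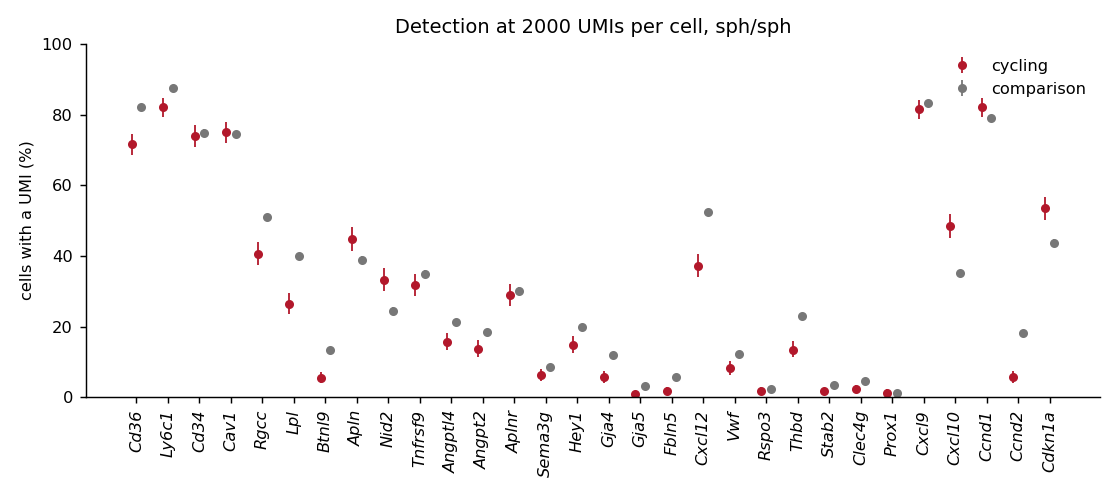
Share of cells with at least 1 UMI of each gene after thinning to 2000 UMIs (y axis, percent), for 859 cycling cells (red) and 9173 comparison cells (grey) of the sph/sph library. Points are shares and bars 95% Clopper-Pearson intervals for counting error, for vessel genes chosen after the values were seen. Apln, Nid2, Cxcl10 and Cdkn1a are higher in cycling cells, and Cd36, Rgcc, Lpl, Btnl9, the arterial genes and Ccnd2 are lower.

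A few genes of sprouting endothelium were above the comparison level over the whole cycling set. None of 20 measured tip and angiogenic genes differed by 2-fold, and 5 were above and 15 below equality (median -0.21). Apln, the apelin peptide made by sprouting endothelium, was at 535 against 439 CPM (1.22-fold, 1.17 to 1.27) and seen in 44.8% against 38.9% of thinned cells (65.3% against 48.1% unthinned). Nid2, a basement membrane nidogen, was at 206 against 159 CPM (33.2% against 24.5%), and Kcne3, a potassium channel subunit, at 43.4 against 26.3 CPM (4.42% against 3.96%). Other genes of the same list ran the other way: Angpt2, the antagonist of Tie2, was at 91.9 against 151 CPM, Cxcr4 at 17.4 against 35.2 CPM, and Esm1 at 32.2 against 49.0 CPM. Aplnr, the apelin receptor, was level at 216 against 230 CPM (28.9% against 30.2% of thinned cells). Of 8 stalk and Notch genes 1, the ligand Jag1, was 2-fold lower (13.9 against 29.4 CPM) but short of it under 5 alternatives (log2 ratios of -0.86 to -0.99), and Notch1 was at 210 against 202 CPM.

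Arterial genes were lower throughout the list. All 13 measured were below equality (median -0.56) and 4 were at least 2-fold lower. Gja5 and Gja4, the connexins of arterial endothelium, were 5.85-fold (4.27 to 8.26) and 2.18-fold lower, at 7.53 against 44.1 CPM and 56.6 against 123 CPM. Fbln5, an elastic fibre protein, was 5.91-fold lower (4.66 to 7.59), at 13.5 against 79.8 CPM, and Mgp, the matrix inhibitor of calcification, was at 15.1 against 48.5 CPM. Without the limit on Lyve1, Gja4 was short of 2-fold lower at a log2 ratio of -0.91. In thinned cells Gja5 was seen in 0.931% against 3.26% and Gja4 in 5.59% against 11.9% (2.04% against 4.44% and 11.2% against 18.1% unthinned). Milder differences held for Sema3g (36.7 against 53.4 CPM), Hey1 (95.9 against 142 CPM) and Cxcl12 (425 against 755 CPM).

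Venous and central vein genes followed. Of 10 measured venous and large-vessel genes 3 were 2-fold lower and none higher (median -0.70): Vwf, the clotting factor of larger vessels (89.95 against 247 CPM), Selp, the adhesion receptor P-selectin (7.72 against 20.1 CPM), and Lrg1 (18.0 against 57.9 CPM). Nr2f2, the factor of venous identity, differed less, at 66.0 against 81.1 CPM. Among 8 central vein genes Rspo3, a Wnt amplifier (20.7 against 64.0 CPM), Wnt2 (10.0 against 25.4 CPM) and thrombomodulin, Thbd (103 against 251 CPM), were 2-fold lower, while the receptor kinase Kit was at 71.2 against 66.6 CPM. Thinned shares were 8.15% against 12.1% for Vwf and 13.5% against 23.0% for Thbd, but 1.86% (1.07 to 3.01%) against 2.37% (2.06 to 2.70%) for Rspo3, whose intervals overlap. After thinning, the central vein median was -0.29 in place of -0.68 and the venous median -0.46, and Selp and Wnt2 were short of 2-fold lower, with log2 ratios of -0.52 and -0.54. With each cell weighted equally, Rspo3 was also short of it at -0.91.

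Sinusoidal genes ranged from common to scarce in both sets. Of 20 listed, 11 were measured, all below equality (median -0.64), and 2 were 2-fold lower: the lectin Clec4g (20.1 against 68.3 CPM) and the nuclease Dnase1l3 (10.4 against 22.2 CPM). Without the limit on Lyve1 both were short of it, at log2 ratios of -0.90 and -0.14. Stab1, a scavenger receptor, was at 272 against 370 CPM and seen in 44.4% against 49.1% of thinned cells (72.5% against 68.7% unthinned), and the clotting factor gene F8 was seen in 11.8% against 16.2%. Stab2, the scavenger receptor for hyaluronan, was at 16.2 against 27.9 CPM and was seen in 1.63% against 3.38% of thinned cells. At least 2 of Stab2, Clec4g, Fcgr2b, Mrc1, Oit3 and Gata4, a set chosen after the values were seen that leaves out Stab1, were found in 1.51% of cycling cells (0.808 to 2.57%) and in 4.33% of comparison cells. Alb, a hepatocyte gene, was seen in 11.29% of thinned cycling and 15.5% of comparison cells. Whether its UMIs came from free RNA or from hepatocytes in the same barcode was not tested. Lymphatic genes were few, with 3 measured and none past 2-fold, and Prox1, the lymphatic master factor, was seen in 1.28% against 1.13% of thinned cells.

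Cycling cells of the sph/+ library carried the opposite set. Of its 100 thinned cycling cells 98.0% (93.0 to 99.8%) held at least 2 of the 6 sinusoidal genes and 8.0% (3.52 to 15.2%) at least 4 of the 6 capillary genes, close to the 98.5% and 7.27% of sph/+ comparison cells. By these 2 sets of 6 genes, cycling cells of each library held its prevailing genes about as often as their comparison cells did. Both sets were chosen after the values were seen, and detection does not read amounts. Amounts were lower: in sph/+ cycling cells 18 of 19 measured sinusoidal genes lay below equality (median log2 ratio -0.65). The sum of that list was 15690 against 24920 CPM. Some capillary genes outside the 6, such as Rgcc and Lpl, were seen less often in sph/sph cycling cells. The genotypes were not separable from their libraries. Most vessel lists low in the sph/sph cycling cells were low in the sph/+ cycling cells as well. Their sph/+ medians were -0.69 (capillary), -0.85 (arterial), -0.51 (venous), -0.90 (central vein) and -0.37 (pan-endothelial), beside 0.03 over all measured genes. The tip and angiogenic list (-0.12) and the inflamed and chemokine list (-0.02) were nearer equality there. Among single genes, Vwf was at 25.2 against 66.1 CPM and Cdkn1c at 56.4 against 119 CPM in sph/+. Hgf, at 5.41 against 23.8 CPM in sph/sph, was level at 69.6 against 67.8 CPM in sph/+. The summed Kupffer markers were at 317 CPM in sph/+ cycling cells and 39.2 CPM in their comparison cells, and their part in these values was not tested.

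Read the other way, the share of cells that cycled differed with the vessel genes they carried. Both the rule and the gene were read in thinned cells, of which 5.68% cycled. Of the cells with Col15a1, a collagen of the endothelial basement membrane, 9.44% cycled (59 of 625; 7.26 to 12.01%), as did 7.75% of those with Cxcl10 and 6.86% of those with Apln (6.12 to 7.66%). Of the cells with Gja5 1.54% cycled (5 of 324; 0.503 to 3.56%), of those with Fbln5 1.89%, of those with Btnl9 2.37%, of those with Gja4 2.54%, and of those with Ccnd2 1.59%. Cells with and without Fabp4 cycled at 5.69% and 5.14%, but only 214 cells lacked it. Other capillary genes went the other way: cells with and without Cd36 cycled at 4.94% and 8.87%. For Lpl the shares were 3.41% and 7.10%, and for Rgcc 4.56% and 6.79%. Differences were smaller for Gpihbp1 (5.62% and 6.17%) and Cav1 (5.64% and 5.81%). Cells with and without Cxcl9 cycled at 5.68% and 5.69%. Among the other arterial genes, cells with Sema3g cycled at 4.81%, with Efnb2 at 4.63% and with Hey1 at 4.04%.

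Genes shared by all endothelium were still detected. Thinned shares in cycling and comparison cells were 88.8% and 90.8% for Kdr, 95.3% and 94.3% for Eng, and 51.9% and 61.9% for Emcn. None of 20 pan-endothelial genes differed by 2-fold, a count near the 6.29% higher and 1.74% lower of all measured genes. Of the 20, 19 lay below equality, with a median of -0.27 beside -0.02 over all measured genes. Kdr, the main VEGF receptor, was at 1388 against 1656 CPM, and Cldn5, the tight junction protein, at 727 against 1149 CPM, whereas the factor Erg was at 32.8 against 29.9 CPM. Per cell, Kdr UMIs were 1.19 times those of comparison cells. Of 15 growth factor genes 2 were 2-fold lower, Hgf and the insulin receptor Insr (21.6 against 49.4 CPM; log2 ratio -0.88 without the limit on Lyve1), and Igf1r was level at 48.6 CPM in both. Of 8 flow and barrier genes 3 were lower, Thbd, Gja4 and Pi16 (20.3 against 50.7 CPM), and the flow-responsive factor Klf2 was at 815 against 999 CPM. Of 14 matrix genes, Mgp alone was 2-fold lower, and Col15a1 was at 54.2 against 32.5 CPM (1.67-fold, 1.46 to 1.90).

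Antigen-presentation, interferon-gamma response and chemokine genes were also present in the cycling cells. None of 7 class II genes (median -0.03), 9 class I genes (-0.07) or 12 interferon-gamma response genes (-0.29) differed by 2-fold. Over all measured genes 6.29% were 2-fold higher and 1.74% lower. All 12 interferon-gamma response genes lay below equality, as did 4 of the class II and 6 of the class I genes. Cd74, the invariant chain, was seen in 87.5% and 87.6% of thinned cells. Cxcl9, a chemokine for T cells, was at 2336 against 3483 CPM but in 81.5% against 83.3% of thinned cells. Cxcl10, a related chemokine, was at 721 against 658 CPM and in 48.5% (45.1 to 52.0%) against 35.0% (34.1 to 36.0%), with 67.0% against 43.2% unthinned. Of 13 inflamed and chemokine genes Selp alone was 2-fold lower, and 12 lay below equality (median -0.47). None of 14 immediate early genes reached 2-fold (median -0.49), with Fos at 278 against 486 CPM.

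Genes of growth differed little. Of 16 genes of ribosome biogenesis and translation 15 were above equality (median 0.30), and 1, the nuclear transport GTPase Ran, was past 2-fold (594 against 227 CPM). Nop58, a nucleolar protein, was at 118 against 64.1 CPM, and Odc1, the first enzyme of polyamine synthesis, at 102 against 52.4 CPM. None of 5 cholesterol synthesis genes reached 2-fold (median 0.31), with Fdft1, which makes squalene, at 23.6 against 12.03 CPM. Of 15 glycolysis and hypoxia genes 1 was 2-fold lower, the mitophagy gene Bnip3 (17.8 against 38.5 CPM), which was short of it under 3 alternatives (log2 ratios of -0.94 to -0.96), and Tpi1 (134 against 88.2 CPM) and Pgk1 (256 against 182 CPM) were on the higher side. None of 6 measured GIMAP genes differed by 2-fold, and Gimap5 itself was at 86.7 against 111 CPM, with 82.8 against 104 CPM in the sph/+ sets. These counts of transcript ends do not read the allele.

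The 12 lowest genes mixed vessel, hepatic and other functions. Mal, a membrane raft proteolipid, was 15.1-fold lower (7.64 to 35.1) on 8 cycling UMIs, at 1.54 against 23.3 CPM, and was seen in 2.24% of comparison cells before thinning. It was followed by Nepn (log2 ratio -2.50), Fbln5 (-2.48), Gja5 (-2.40), Sprr2b (-2.35), Cyp26b1 (-2.13), Gsta3 (-2.03), Tcp11l2 (-1.98), Igfbp3 (-1.96), Hgf (-1.95), Adam23 (-1.90) and Fmo2 (-1.88). Cyp26b1, which degrades retinoic acid, was at 7.53 against 36.3 CPM, and Adam23, a cell adhesion protein, at 11.2 against 44.4 CPM. Both were far more abundant in the sph/+ comparison cells, at 836 and 1009 CPM. Gsta3 was at -0.78 without barcodes holding 5 or more UMIs of other cell types. Igfbp3, a binding protein for insulin-like growth factors, was at 15.4 against 63.2 CPM. Each of the 12 was seen in 2.24% to 12.8% of comparison cells.

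Markers of other cells moved with the sets in both directions. All 8 measured hepatocyte markers were 2-fold lower in cycling cells (median -1.46), their sum of 11 genes being 239 against 655 CPM. Without barcodes holding 5 or more UMIs of other cell types that median was -0.45, and 110 genes were 2-fold lower in place of 125. Erythroid markers were higher: 4 of 7 measured were past 2-fold, with Hbb-bt at 557 against 197 CPM, and the sum of 9 genes was 3959 against 2380 CPM. This rested on 6 of the 881 cells, which held 3 or more UMIs of red cell membrane genes, 1407 to 4653 haemoglobin UMIs each, and together 92.9% of the haemoglobin UMIs of the cycling set. With these and all other erythroid-marked barcodes removed the erythroid median was -3.10, the cycling share was 7.47%, and 449 genes were 2-fold higher. Haemoglobin was absent from 88.0% of cycling cells.

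Other cell types were close to nil. No leukocyte, Kupffer, cholangiocyte or megakaryocyte marker reached 20 CPM in either set, and their sums in cycling and comparison cells were 16.6 and 26.3, 8.11 and 10.9, 8.88 and 17.0, and 14.1 and 14.9 CPM. Ptprc, the CD45 antigen that the sort excluded, had 1 UMI in the cycling set. Cd3e, Csf1r, Clec4f, Timd4, Epcam, Krt7 and Sox9 had none. The stellate and fibroblast sum was 109 against 112 CPM, of which Dcn made up 92.7 and 90.6 CPM.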

How the data were processed

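The authors deposited raw UMI counts per gene and barcode for 1 library per genotype, made with Cell Ranger 3.0 on mm10 per the submitters' processing notes (3.1.0 per the file headers). The annotation release is not given in the sources used here. Totals were 68983780 UMIs in 16386 sph/sph barcodes and 64460283 in 13136 sph/+ barcodes. Counts were summed over each set and scaled to CPM, and log2 ratios used 1 CPM added and genes with at least 20 CPM in either set. No test was made, with 1 mouse per genotype. Intervals are 95% Clopper-Pearson or Poisson for counting error, and fold intervals are exact conditional binomial. Named genes were the 12 highest and 12 lowest ratios and the genes of 41 lists. The cells, lists and genes were chosen with earlier results of these data known. No doublets were removed, since the rule names none. Scrublet's automatic threshold marked 0 barcodes, so 1 alternative removed the 1440 highest scores of 13094 sph/sph barcodes. Thinning drew 2000 UMIs per cell without replacement. The computation was tested on simulated data. Versions were Python 3.11.15, numpy 2.4.6, scipy 1.17.1, pandas 2.3.3, scanpy 1.11.5 and matplotlib 3.10.9. Values of some list genes are not reported here, although the genes stay in the list counts and sums.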

Additional observations from a re-analysis of the deposited data

Results flagged for a closer look

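Division transcripts were also found in barcodes outside the comparison. Of the sph/sph barcodes with more than 4 Lyve1 UMIs, which the limit on Lyve1 left out, 5.27% (64 of 1215) held 3 or more division UMIs, against 2.95% (59 of 2000) in the sph/+ library. Of the sph/sph barcodes with no UMI of Pecam1 or Cdh5, 3.83% (7 of 183) did, and 4 of these 7 held UMIs of red cell membrane genes. In the sph/+ library 1 of 189 such barcodes did (0.529%).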

How the results depend on the processing

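The cycling share of 7.53% was 9.003% with a sum of 2 or more, 5.6% with a sum of 6 or more and 5.68% in thinned cells, differences that follow from the changed threshold or depth. Under the other alternatives it lay between 7.15% and 7.68%. With a floor of 5 CPM 276 genes were 2-fold lower, and with a floor of 50 CPM 257 were higher and 59 lower, as more or fewer genes were measured. Under the other alternatives 403 to 630 genes were higher and 96 to 163 lower. Some named genes changed sign. Ccl7, with 8 cycling UMIs, had a log2 ratio of 0.35 without the limit on Lyve1 and -2.47 with it. Without barcodes holding 5 or more UMIs of other cell types, the log2 ratios were 0.0595 for Cyp2e1, -0.26 for Alas2, -0.26 for Ermap and 0.27 for Lyz2, an alternative that removes the barcodes rich in such genes. Without erythroid-marked barcodes, an alternative chosen after seeing the data, the erythroid median was -3.10, Hbb-bt was at -4.11 and Alas2 at -2.64. Where not stated, the cause was not tested. No paired analysis was possible because each genotype has 1 mouse, and no replicate could be left out. Depth limits the scarce genes most, such as Mal with 8 cycling UMIs.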
